A study of Mus musculus with 4 samples.

Results

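The genes described here separate B-1 from follicular B cells in the mouse: Cd5, Bhlhe41, Zbtb32, Sox5, Fcrl5 and Cd9 on the B-1 side, and Fcer2a and Cr2 on the follicular side. These 8 genes were read by their symbols, of 32285 gene rows in each matrix, in B cells of DLA tumors. B cells were the barcodes with at least 2 UMIs summed over Cd79a, Cd79b and Ms4a1 and at most 2 UMIs of the keratins Krt8 and Krt18, and 339 of them came from the 2 SP11-treated libraries, out of 4404 kept cells of the series. A UMI (unique molecular identifier) marks 1 captured RNA molecule. The rule picks the genes by name, and B cells by the gate genes.

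DLA (Dalton's lymphoma ascites) is a transplantable mouse tumor that was injected into the peritoneal cavity of Swiss albino mice. Control 1 and Control 2 carried the tumor and are labelled untreated, and Treated 1 and Treated 2 carried it and were given the HSP90 inhibitor SP11 by mouth at 30 mg/kg for 17 days. The study's methods speak of 2 independent sets of controls and treated animals, without tying same-numbered libraries to 1 set or saying how many mice a library holds, so each group had n = 2 libraries. The cells were profiled by 10x single-cell RNA sequencing. Tumor cells were taken as the keratin-positive cells, and B cells, T cells and myeloid cells were gated beside them in the same libraries.

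B-1 cells are innate-like B cells that live mainly in the peritoneal and pleural cavities, renew themselves there and secrete natural IgM. Follicular B cells recirculate through blood and lymphoid organs, carry IgD and take part in responses that need T cells. CD5 marks the B-1a subset, and BHLHE41 and ZBTB32 are transcription factors at work in B-1 cells. SOX5 is a transcription factor of the SOX family, FCRL5 is an Fc receptor-like protein of B-1 and marginal zone B cells, and CD9 is a tetraspanin of B-1 and marginal zone B cells that many other cells also carry. Fcer2a codes for CD23, the low-affinity IgE receptor of follicular B cells, and Cr2 for the complement receptors CD21 and CD35.

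The RefSeq promoters of the 4 transcription factor and receptor genes that the B cells carried most often are shown because these genes stood together in the same class of cells. Each is the 250 bases before a start site on the gene's own strand in GRCm38.p6. They are chr6:143947107-143947356 (minus strand), chr7:30598910-30599159 (minus strand), chr3:87435532-87435781 (plus strand) and chr6:145865421-145865670 (minus strand). Capitals mark a match to 1 of the 4 motifs searched on both strands.
Sox5: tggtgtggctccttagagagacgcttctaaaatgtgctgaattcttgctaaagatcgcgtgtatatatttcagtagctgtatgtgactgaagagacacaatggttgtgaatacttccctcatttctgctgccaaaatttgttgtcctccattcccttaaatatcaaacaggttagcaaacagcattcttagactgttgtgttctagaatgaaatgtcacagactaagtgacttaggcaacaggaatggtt
Zbtb32: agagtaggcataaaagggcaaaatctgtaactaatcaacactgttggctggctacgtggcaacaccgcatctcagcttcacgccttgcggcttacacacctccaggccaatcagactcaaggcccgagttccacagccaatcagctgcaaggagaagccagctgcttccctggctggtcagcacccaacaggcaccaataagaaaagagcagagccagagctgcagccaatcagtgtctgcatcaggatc
Fcrl5: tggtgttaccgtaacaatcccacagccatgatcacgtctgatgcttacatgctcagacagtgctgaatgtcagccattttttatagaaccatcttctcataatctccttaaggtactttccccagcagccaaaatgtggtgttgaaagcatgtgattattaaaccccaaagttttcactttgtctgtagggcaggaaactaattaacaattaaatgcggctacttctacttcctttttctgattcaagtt
Bhlhe41: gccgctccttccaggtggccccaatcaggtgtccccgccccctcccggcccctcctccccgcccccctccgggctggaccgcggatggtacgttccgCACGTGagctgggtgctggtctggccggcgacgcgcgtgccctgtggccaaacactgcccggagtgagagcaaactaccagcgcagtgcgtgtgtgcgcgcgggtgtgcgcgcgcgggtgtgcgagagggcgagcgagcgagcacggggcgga

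The motifs were the octamer ATGCAAAT of OCT factors, the E-box CACGTG that BHLHE41 family proteins bind, a PU.1 core spelled GAGGAAGT, and an EBF core spelled CCCNNGGG. Of all 32851 promoters of this length, 1.60% held the octamer, 6.02% the E-box, 2.44% the PU.1 core and 11.8% the EBF core. Among the promoters of all 8 genes, Bhlhe41 held 1 E-box and Cd5 held 1 PU.1 core, and no other match was found in these windows. Zbtb32 and Fcer2a have more than 1 start in the table, and the start given for Sox5 lies inside the gene. Sox5 spans 953.86 kb (chromosome 6, 143828425 to 144782287), by far the longest of the 8 genes, and reads from introns were counted or not by a setting that is not given in the sources used here. Levels are therefore compared between cell classes for 1 gene, never between genes.

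The kept cells held between 9574906 and 13024964 UMIs per library. Control 1 had 1 B cell of 916 kept cells and Control 2 had 0 of 566, which allows a share of up to 0.530%. Treated 1 had 180 B cells of 1831 (9.83%, 95% Clopper-Pearson interval 8.50 to 11.3) and Treated 2 had 159 of 1091 (14.6%, 12.5 to 16.8). The B cells were shallow, with a median of 915 UMIs in Treated 1 and 1686 in Treated 2, against 638.5 and 859 in T cells, 994.5 and 1644.5 in myeloid cells and 8758 and 19672 in tumor cells. All intervals and limits for 0 counts (3 counts) cover counting error only. The gated cells had the genes of their label: all 10 genes of a B cell list outside the gate, such as Pax5, Ebf1 and Ighm, had UMIs in them in both libraries, and all 10 were called higher than in T cells, than in myeloid cells and than in tumor cells. The same cells also held free or foreign RNA. Hemoglobin and other erythroid genes made up 79081 and 62526 CPM (counts scaled to 1000000 UMIs) of the B cell UMIs, myeloid markers 2231 and 1210 CPM with all 9 measured markers found, the 5 keratin-list genes 538 and 323 CPM, and T cell markers 115 and 117 CPM with 9 and 8 of 10 found. Between the SP11-treated libraries 359 barcodes were listed in both, among them 28 B cells of Treated 1 and 43 of Treated 2, and 0 were gated as B cells in both.

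Sox5 was the gene of the 8 found in most B cells, and its RNA was nearly absent from the gated T, myeloid and tumor cells. Kept barcodes that met no class gate held a further 23 and 14 Sox5 UMIs in Treated 1 and Treated 2. In Treated 1, 77 of 180 B cells had a Sox5 UMI (42.8%, 35.4 to 50.4), and in Treated 2, 64 of 159 did (40.3%, 32.6 to 48.3), shares that differed by less than their counting intervals. Its level was 553 CPM in Treated 1 (111 UMIs) and 723 CPM in Treated 2 (217 UMIs). At least 2 Sox5 UMIs were found in 11.1% and 26.4% of the B cells, and 1 cell of Treated 2 held 22. Sox5 had 0 UMIs in 16 and 79 T cells, 0 UMIs in 268 myeloid cells of Treated 1, 2 UMIs in 220 myeloid cells of Treated 2, and 10 and 11 UMIs in 1071 and 507 tumor cells. With each cell thinned to 500 UMIs, a draw that puts cells of unlike depth on 1 footing, 24.4% and 18.9% of B cells kept a Sox5 UMI against 0% and 0.375% of myeloid cells and 0.0433% and 0.0491% of tumor cells. The 0 counts in T cells allow up to 244 and 36.3 CPM, below the B cell level of the same library.

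Zbtb32, Fcrl5 and Bhlhe41 were found in fewer B cells, at levels that were close between the libraries. Zbtb32 had 25 and 36 UMIs (124 and 120 CPM) and was found in 12.2% (7.82 to 17.9) and 16.4% (11.0 to 23.0) of B cells. Fcrl5 had 22 and 33 UMIs (110 CPM in each library) and was found in 12.2% (7.82 to 17.9) and 15.7% (10.4 to 22.3). Bhlhe41 had 13 and 21 UMIs (64.7 and 70.0 CPM) and was found in 6.67% (3.49 to 11.4) and 10.1% (5.86 to 15.8). The T cells of both libraries had 0 UMIs of each of these 3 genes, and of the same 2 limits only the bound from Treated 2 lies below the B cell levels. In myeloid cells Zbtb32 stood at 6.61 and 7.12 CPM, Bhlhe41 at 0 and 2.37 CPM, and Fcrl5 at 0 in both libraries. Bhlhe41 was not a gene of the B cells alone: tumor cells had 112 and 120 UMIs of it (10.8 and 11.4 CPM), and 9.34% and 20.1% of them had a UMI.

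Cd5 and Cd9 of the B-1 side did not follow Sox5, Zbtb32, Fcrl5 and Bhlhe41. Cd5 had 1 UMI in 180 B cells and 1 UMI in 159 (0.556%, 0.0141 to 3.06, and 0.629%, 0.0159 to 3.45). The cell with the Cd5 UMI carried a UMI of the T cell gate genes in each library, against 7 of 179 and 7 of 158 other B cells. In T cells 4 of 16 and 10 of 79 cells had Cd5, at 326 and 145 CPM. In myeloid cells, which should lack it, 0 of 268 and 1 of 220 did. Their counting intervals (0 to 1.37% and 0.0115 to 2.51%) overlapped those of the B cell shares. The B cells had a median of 915 and 1686 UMIs, and the T cells were shallower, at 638.5 and 859. Cd5 stood at 4.98 and 3.33 CPM in B cells, and 1 UMI per library cannot tell a low level from foreign RNA. Cd9 stood at 44.8 and 39.99 CPM in B cells (9 and 12 UMIs, 5.0% and 5.66% of cells). Its level was higher in myeloid cells (106 and 202 CPM) and tumor cells (200 and 255 CPM, 79.0% and 97.0% of cells). In T cells it was 81.4 and 84.7 CPM, on 1 and 7 UMIs. The pooled ratio of B to T cells was 0.498, with a counting interval of 0.212 to 1.30, which gives no direction. Of the 9 B cells with Cd9 in each library, 6 and 7 carried a myeloid gate UMI, against 37.4% and 37.3% of the other B cells, and the part of foreign RNA in the Cd9 counts was not tested.

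Fcer2a and Cr2 were rare, and more of their UMIs lay in Treated 2. Fcer2a had 1 UMI in Treated 1 and 7 in Treated 2 (0.556% of B cells, 0.0141 to 3.06, and 4.40%, 1.79 to 8.86). Cr2 had 1 UMI in Treated 1 and 7 in 6 cells of Treated 2 (0.556%, 0.0141 to 3.06, and 3.77%, 1.40 to 8.03). A UMI of either gene was found in 2 of 180 B cells (1.11%, 0.135 to 3.96) and in 13 of 159 (8.18%, 4.43 to 13.6), and with thinning to 500 UMIs in 0.626% and 4.14%. The intervals of the unthinned shares did not overlap between the 2 SP11-treated libraries. No T cell or myeloid cell of these libraries had a UMI of either gene, and tumor cells had 1 UMI of each in 1578 cells.

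**Figure D1:**
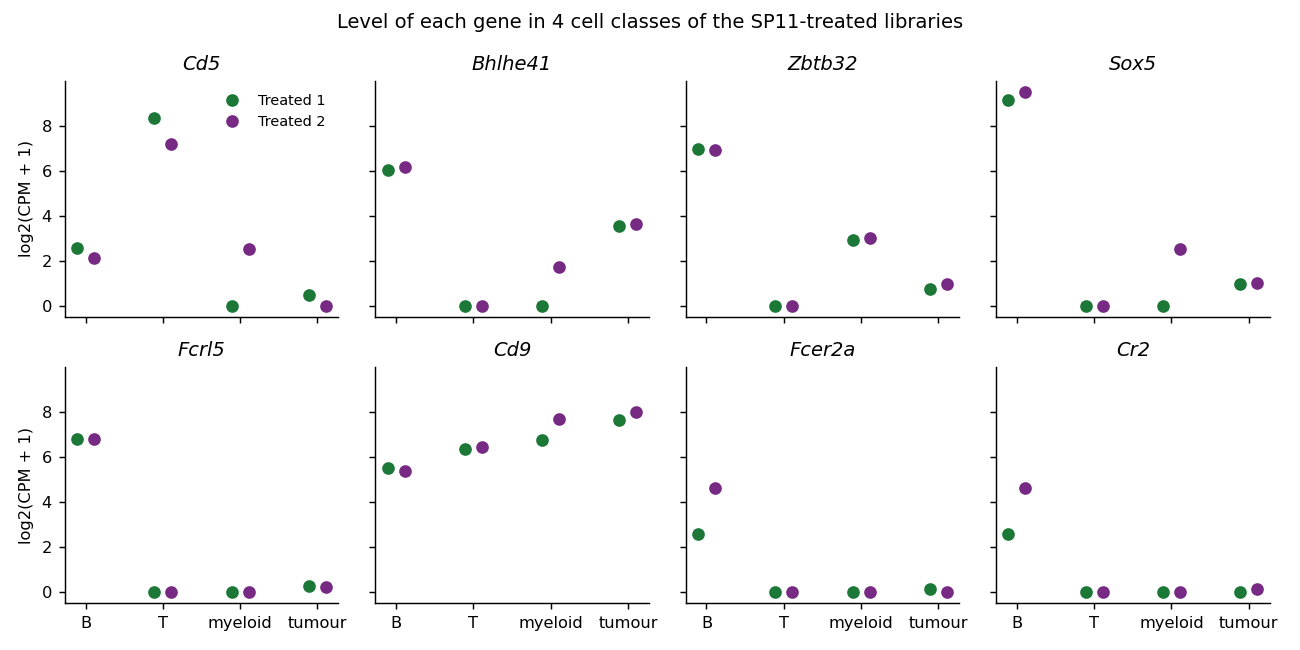
Level of each of the 8 genes as log2(CPM + 1) (vertical axis) in B, T, myeloid and tumor cells (horizontal axis) of Treated 1 (green) and Treated 2 (purple), 1 point per library from summed UMIs. Sox5, Zbtb32, Fcrl5 and Bhlhe41 are highest in B cells, Cd5 in T cells and Cd9 in tumor cells, and a point at 0 stands for 0 UMIs.

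**Figure D2:**
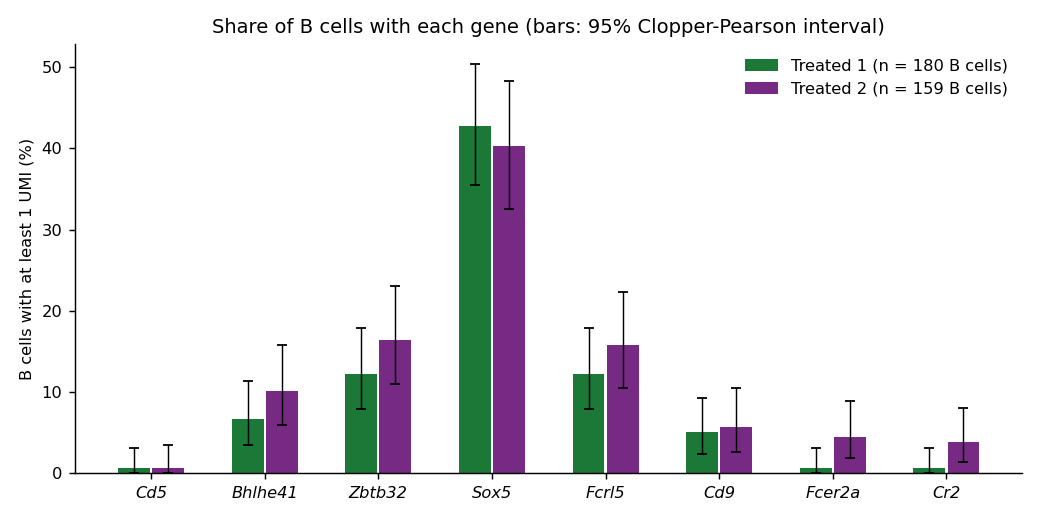
Share of B cells with at least 1 UMI of each gene, in percent, in Treated 1 (180 cells) and Treated 2 (159 cells), with error bars for the 95% Clopper-Pearson interval. Sox5 stands at 42.8% and 40.3%, Cd5 below 1% in both libraries, and Fcer2a and Cr2 are higher in Treated 2.

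Whether these levels set B cells apart was tested in edgeR's quasi-likelihood test on UMIs summed per library and class, with the library in the model and Benjamini-Hochberg adjustment over all 5688 genes tested. Of the 8 genes 6 passed the filter on low counts, and Fcer2a and Cr2 did not. The 2 libraries are the replicates (n = 2). With the library in the model, p-values rest on how class differences vary between the libraries. That spread is estimated jointly over all cell classes and with information from all genes.

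Against T cells, 4 of the 6 genes tested were higher in B cells, where 4.22% of all genes were called higher, and 1 was lower, where 2.20% were called lower. The first 4 had 0 UMIs in T cells. They passed the filter on low counts through the B cells, so their number is no support for a pattern. Since T cells had 0 UMIs of the first 4, their folds over the pooled libraries are bounds, computed against 3 counts over the group. Sox5 was at least 20.7-fold higher (adjusted p = 1.84e-23), Zbtb32 at least 3.85-fold higher (adjusted p = 0.000984), Fcrl5 at least 3.47-fold higher (adjusted p = 0.00291) and Bhlhe41 at least 2.15-fold higher (adjusted p = 0.0153). These bounds rest mostly on Treated 2: in Treated 1 alone, with 16 T cells, the bound was 2.26-fold for Sox5, and for the other 3 the 0 counts allow a T cell level above that of the B cells. The call of Bhlhe41 was lost with DESeq2 (adjusted p = 0.100), with a minimum of 500 genes per cell (0.0918) and without the barcodes that both libraries list (0.103), and that of Fcrl5 without B cells that carried UMIs of other lineages (0.0721). Cd5 was lower in B cells, with a log2 value of -5.09 (SE 1.05, adjusted p = 6.47e-05). It passed the filter on low counts through the T cells, where it was high, so its call is no support for a pattern either. Cd9 missed the threshold (log2 fold change -0.48, SE 0.67, adjusted p = 0.828).

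Against myeloid cells, the same 4 symbols were called higher in B cells, where 12.5% of all genes were called higher, and Cd9 was called lower, where 16.0% were. These 4 genes passed the filter through the B cells here too, so their number is no support for a pattern. On the log2 scale Sox5 differed by 7.94 (SE 0.42, adjusted p = 6.04e-77), with 2 myeloid UMIs, a pooled ratio of 237 and a counting interval of 65.1 to 1966. Zbtb32 differed by 4.22 (SE 0.66, adjusted p = 2.90e-09) and Bhlhe41, on 1 myeloid UMI, by a pooled ratio of 49.1 with an interval of 8.24 to 1997 (adjusted p = 2.39e-08). Fcrl5 was at least 26.5-fold higher (adjusted p = 7.74e-12). Cd9 was lower, at -1.85 on the same scale (SE 0.35, adjusted p = 1.31e-06), and Cd5 had 2 UMIs on each side (adjusted p = 0.836). The pooled bound for Fcer2a and for Cr2, which were not in the fit, was at least 3.85-fold higher in B cells for each, with 7 of 8 UMIs of either gene in Treated 2 and both sides at or under 3 UMIs in Treated 1. T cells were too few to give such a bound for them.

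Against tumor cells, 5 of the 6 genes were called higher, where 31.8% of all genes were called higher, and Cd9 was called lower, where 31.0% were. With so many genes called, and with Sox5, Zbtb32, Fcrl5 and Bhlhe41 tested through their B cell UMIs, these counts say little about the 8 genes. The log2 fold change was 9.41 for Sox5 (SE 0.25, adjusted p = 3.25e-292), 9.02 for Fcrl5 (SE 0.64, adjusted p = 2.79e-43), 7.31 for Zbtb32 (SE 0.52, adjusted p = 2.03e-42) and 2.76 for Bhlhe41 (SE 0.43, adjusted p = 1.28e-09). Cd9 was lower, at -2.32 (SE 0.29, adjusted p = 1.61e-14). Cd5 was called on 2 B cell UMIs and 4 tumor UMIs (adjusted p = 0.0303). Without the B cells that carried UMIs of other lineages no Cd5 UMI was left and the call was lost (adjusted p = 0.865).

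Other genes of the same cell types were read from fixed lists. Their counts stand beside 4.22% of all genes called higher and 2.20% lower against T cells, and 12.5% higher and 16.0% lower against myeloid cells, and lists of 1 to 6 tested genes are too short to be set against those shares. Of 15 further B-1 associated genes, all tested, 5 were higher in B cells than in T cells, 2 were lower and 8 were not called, with a median log2 fold change of 0.80 against 0.26 over all genes. Plac8 (log2 fold change 3.48), Tnfrsf13b (4.78), Capg (2.71), S100a6 (1.70) and Vim (1.67) were higher, and Ctla4 (-4.28) and Spn (-3.39), which T cells also express, were lower. Against myeloid cells 5 of the 15 were higher, 4 lower and 6 not called, with a median of 0.27 against 0.04. Plac8 (1.10), Tnfrsf13b (1.92), Zbtb20 (1.41), Ptpn22 (2.04) and Il5ra, a receptor chain for the B-1 growth factor IL-5 (7 and 11 B cell UMIs), were the higher ones, and Itgam (-2.81), Anxa2 (-1.88), Ahnak (-1.15) and Lgals1 (-0.74) the lower ones. These lists were chosen with earlier results of the data known, and several of the genes mark other cells too.

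Of 10 further follicular associated genes 6 were tested. Klf2 (log2 fold change 1.25) and Ighd, the IgD heavy chain, were higher than in T cells and 4 were not called (median 1.81), while Cd55 (6.41), Ighd (6.08), Cxcr5 (2.66), Ccr7 (2.31) and Klf2 (0.60) were higher than in myeloid cells (median 2.49). All but Icosl of the 10 had a higher CPM in Treated 2 than in Treated 1, with Ighd at 39.8 and 137 CPM and a summed level of 852 and 1416 CPM. The further B-1 genes summed to 13017 and 11318 CPM, close to 13000 and 12330 CPM in myeloid cells and below 21161 and 19093 CPM in tumor cells, so their sum does not set the B cells apart. Marginal zone genes summed to 94.6 and 60.0 CPM, with 0 of 3 tested called higher than in T cells and 1 higher and 2 lower than in myeloid cells. Germinal centre genes summed to 44.8 and 46.7 CPM, and the 1 gene tested was not called against T cells and was lower than in myeloid cells. Plasma cell genes summed to 827 and 1166 CPM, with 2 of 4 higher than in T cells, and 3 higher and 1 lower than in myeloid cells.

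Pairs of the B-1 genes were found in the same B cell, most often Sox5 with Zbtb32. A UMI of at least 1 of the 6 B-1 genes was found in 59.4% of B cells of Treated 1 (51.9 to 66.7) and 57.9% of Treated 2 (49.8 to 65.6), against 31.3% and 21.5% of T cells, 11.6% and 28.6% of myeloid cells and 80.9% and 97.2% of tumor cells. Without Cd9 the shares were 56.7% and 56.0% in B cells, 25.0% and 12.7% in T cells, 0.746% and 3.18% in myeloid cells and 11.2% and 23.7% in tumor cells. With each cell thinned to 500 UMIs, at least 1 of the 6 genes was found in 36.8% and 29.4% of B cells. The thinned shares were 25.8% and 9.74% in T cells, 5.81% and 11.9% in myeloid cells and 10.3% and 12.6% in tumor cells. Thinned and without Cd9, the shares were 34.3% and 28.03% in B cells and 21.6% and 5.05% in T cells. They were 0.365% and 0.821% in myeloid cells and 0.61% and 0.673% in tumor cells. Treated 1 had 77 cells with 1 of the 6 genes, 24 with 2 and 6 with 3, and Treated 2 had 53 with 1, 31 with 2, 6 with 3 and 2 with 4. Sox5 and Zbtb32 were found in the same cell 15 times in Treated 1 and 18 times in Treated 2, where the product of their shares gives 9.41 and 10.5 cells. The level of Zbtb32 was 194 CPM in cells with Sox5 against 64.8 CPM in cells without it in Treated 1, and 152 against 81.1 CPM in Treated 2. For Sox5 and Fcrl5 the counts were 8 against a product of 9.41, and 13 against 10.1, and Fcrl5 stood lower in cells with Sox5 in both libraries (86.2 against 130 CPM, and 91.2 against 133 CPM). Bhlhe41 and Sox5 shared 5 and 7 cells against products of 5.13 and 6.44, and Bhlhe41 too stood lower in cells with Sox5 (53.9 against 74.1 CPM, and 48.7 against 95.8 CPM). Pairs of Zbtb32, Fcrl5 and Bhlhe41 shared 2 to 5 cells, each at or above a product between 1.47 and 4.09. Depth moved with these counts: cells with Sox5 had a median of 1020 and 2202 UMIs against 824 and 1257 in cells without it. UMIs of other lineages moved with Sox5 in Treated 2, where 57.8% of the cells with Sox5 had a myeloid gate UMI and 42.2% a keratin UMI against 27.4% and 27.4% without it, but not in Treated 1 (36.4% and 29.9% against 40.8% and 33.0%). The part of depth and of foreign RNA in the counts was not tested.

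**Figure D3:**
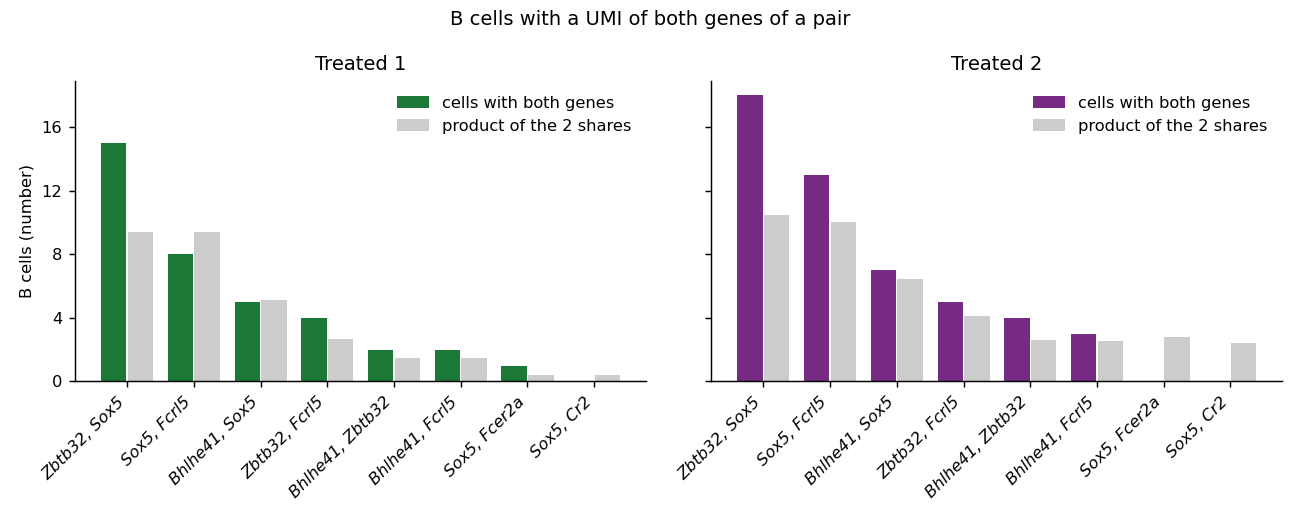
Number of B cells with a UMI of both genes of a pair (coloured bars) beside the number that the product of the 2 shares gives (grey bars), for 8 pairs in Treated 1 and Treated 2. Zbtb32 and Sox5 stand above the product in both libraries with 15 and 18 cells, and Sox5 shared 1 cell with Fcer2a and 0 with Cr2 in Treated 1 and 0 with either in Treated 2.

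Follicular genes and Sox5 lay mostly in different cells of Treated 2. None of its 13 cells with Fcer2a or Cr2 had a Sox5 UMI, against 64 of the other 146, and the 7 cells with Fcer2a and the 6 with Cr2 did not overlap. Those cells were shallower, and in the shallowest of 3 bins of the library's B cells Sox5 was found in 0 of 9 cells with a follicular gene and in 4 of 44 without one (131 CPM), so that at like depth few cells of either kind had it. For the B-1 genes as a set the separation was smaller: 5 of the 13 cells had a UMI of a B-1 gene, with a product of 7.52, and these UMIs were of Bhlhe41 (2), Zbtb32 (2) and Fcrl5 (3). In Treated 1, 1 of the 2 cells with a follicular gene had a B-1 gene, Sox5, with a product of 1.19. None of the 15 cells with a follicular gene had a UMI of the T cell or myeloid gate genes. Of the other B cells, 39.3% in Treated 1 and 43.2% in Treated 2 had a myeloid gate UMI. A keratin UMI was found in 1 of the 2 cells of Treated 1 and 2 of the 13 of Treated 2. The shares in the other B cells were 31.5% and 34.9%. The 13 cells of Treated 2 were shallower than its other B cells, and the part of depth in these shares was not tested.

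The same cells of Treated 2 held more Ighd and fewer UMIs in all. Ighd stood at 821 CPM in the 13 cells (14 UMIs) against 95.4 CPM in the other 146 (27 UMIs), and their median depth was 1032 against 1772 UMIs. Cells with Sox5 were low in Ighd in both libraries, at 10.8 against 64.8 CPM in Treated 1 (1 and 7 UMIs) and 48.7 against 243 CPM in Treated 2 (8 and 33 UMIs). The level of Ighm, the IgM heavy chain, was 1896 against 1806 CPM in cells with and without Sox5 in Treated 1, and 3102 against 1740 CPM in Treated 2. Cd79a stood at 5655 against 4936 CPM and at 5559 against 4791 CPM, but its UMIs were used by the B gate, so these values are no result.

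Split into 3 bins of equal size by UMIs per cell, the B cells of the 2 libraries differed. In Treated 2 Sox5 was found in 4 of 53 cells of the shallowest bin (7.55%, 539 to 1286 UMIs), 25 of 53 in the middle (47.2%) and 35 of 53 in the deepest (66.0%), and its CPM also rose over the bins (108, 546 and 992 CPM). Follicular genes went the other way, with 9 of 53 cells in the shallowest bin (16.98%) and 2 of 53 in each of the others (3.77%). In Treated 1 Sox5 was found in 31.7%, 48.3% and 48.3% of 60 cells per bin, at 560, 706 and 467 CPM, and follicular genes in 1, 0 and 1 cells. Within the shallowest bin of Treated 2, Ighd stood at 998 CPM in the 9 cells with a follicular gene (8 UMIs) and 289 CPM in the other 44 (11 UMIs), at medians of 827 and 864.5 UMIs. No cell of a bin is a replicate, and the difference between the libraries was not tested.

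**Figure D4:**
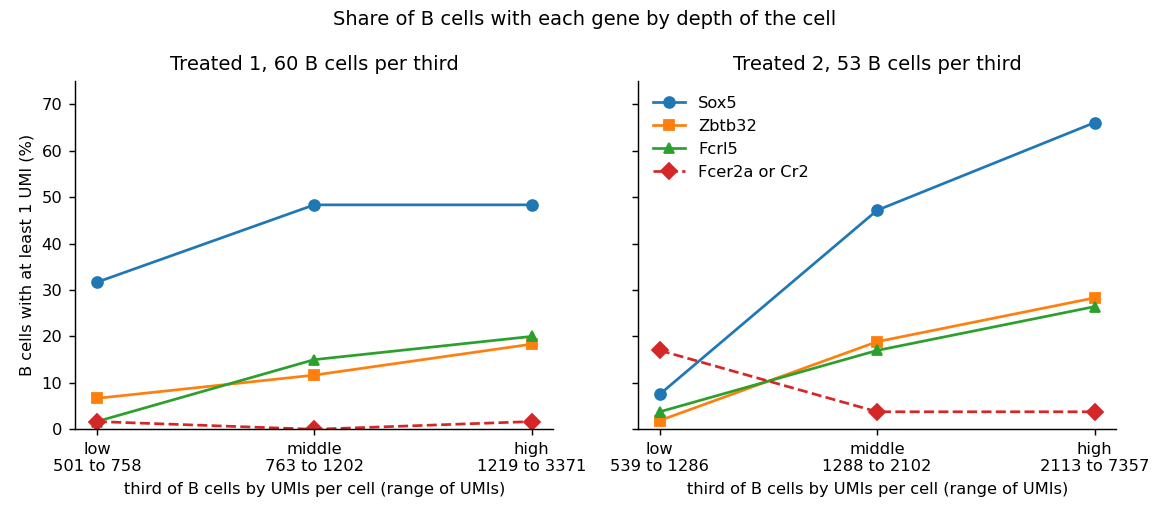
Share of B cells with at least 1 UMI of Sox5, Zbtb32, Fcrl5, or either of Fcer2a and Cr2 (vertical axis, percent) in 3 bins of B cells by UMIs per cell (horizontal axis, with the range of UMIs), in Treated 1 (left) and Treated 2 (right). In Treated 2 Sox5 climbs from 7.55% to 66.0% while the follicular genes fall from 16.98% to 3.77%, and in Treated 1 Sox5 is at 31.7% or more in every bin.

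The B cells with B-1 genes only (106 in Treated 1, 87 in Treated 2) were set against those with follicular genes only (1 and 8) on sums per library, with the 8 genes left out and the library in the model. These groups are called B-1 cells and follicular cells for short, by the UMIs found and not as an established cell type. Of 631 genes tested 1 was called, which is 0.158%: Ighd was lower in the B-1 cells, at -3.87 on the log2 scale (SE 0.89, edgeR adjusted p = 0.00985). Its UMIs were 3 and 12 in the B-1 cells (23.7 and 57.3 CPM), and 0 and 8 in the follicular cells (0 and 1112 CPM). Ighd passed the filter on low counts only through cells of Treated 2 with a follicular gene, where it was high. These were the follicular cells and the cells with both kinds of gene (608 CPM). The call of Ighd is therefore no support for a pattern. The difference rests on the 8 cells of Treated 2, since the single follicular cell of Treated 1 had 1653 UMIs, and 0 counts in it allow up to 1815 CPM, which gives no direction. With no filter on low counts the call was lost (log2 value -2.44, SE 0.77, edgeR adjusted p = 0.243). Against the 72 and 59 B cells with neither kind of gene, 1 of 631 genes was called (0.158%), Apoe, a lipoprotein gene of macrophages, which was lower in the B-1 cells (log2 fold change -1.85, SE 0.46, edgeR adjusted p = 0.0472; 182 and 95.4 CPM against 319 and 599 CPM). Ighd did not pass there (log2 fold change -1.83, SE 0.63, adjusted p = 0.562).

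Over the 8 sums of 4 classes in 2 libraries, the genes with the level pattern most like that of Sox5 were Spib, a B cell transcription factor, Cecr2 and Susd1 (Pearson r of log2(CPM + 1) of 0.995, 0.992 and 0.988 among 3019 genes). Those nearest to Zbtb32 were Bank1, a B cell scaffold protein, Siglecg, an inhibitory receptor of B cells, and A530032D15Rik (0.997, 0.994 and 0.992). Those nearest to Fcrl5 were Tnfrsf13c, the BAFF receptor, Gm31243 and Chst3 (1.000, 0.999 and 0.998). Bhlhe41 lay nearest to Rubcn, Scd1 and Prr5 (0.975, 0.966 and 0.961) and Cd9 to Hilpda, S100a11 and Hspa8 (0.929, 0.926 and 0.925). The 8 sums share libraries and classes, so these values describe likeness only.

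Control libraries had almost no B cells, so the genes could be compared between SP11 and control only over all kept cells and in tumor cells. The 1 B cell of Control 1 had 700 UMIs and none of the 8 genes. Over all kept cells Sox5 counted 4 and 8 UMIs in Control 1 and Control 2 against 144 and 244 in Treated 1 and Treated 2, Fcrl5 had 0 and 1 against 27 and 41, Zbtb32 had 15 and 10 against 46 and 55, and Cd5 had 1 and 0 against 15 and 19. In CPM both treated libraries stood above both controls for these 4 genes, as for 40.9% of all 12149 genes tested, so the count of 4 says little about these genes. Bhlhe41 had 89 and 126 UMIs against 139 and 158, or 9.14 and 13.2 against 10.7 and 12.1 CPM, and Cd9 213 and 259 against 195 and 248 CPM, so that these groups overlapped. Fcer2a had 0 and 0 UMIs against 5 and 7, and Cr2 0 and 0 against 1 and 8.

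In edgeR (n = 2 libraries per group, 12149 genes tested) 4 of the 6 genes that passed the filter were called higher with SP11, where 9.11% of all genes were called higher. Sox5, Fcrl5 and Cd5 passed the filter through the treated libraries, where they were higher, so this count is no support for a pattern. The log2 difference was 4.40 for Sox5 (SE 0.35, adjusted p = 3.89e-08) and 1.42 for Zbtb32 (SE 0.35, adjusted p = 0.00900). Fcrl5, on 1 control UMI, had a pooled ratio of 50.5 with a counting interval of 8.76 to 2022 (adjusted p = 6.46e-05), and Cd5, also on 1 control UMI, a ratio of 25.2 with an interval of 4.23 to 1026 (adjusted p = 0.00210). Zbtb32 lost its call with DESeq2 (adjusted p = 0.101) and without Control 2 (adjusted p = 0.0692), and Cd5 lost it with DESeq2 (adjusted p = 0.0947). Bhlhe41 (log2 fold change -0.12, SE 0.19, adjusted p = 0.750) and Cd9 (-0.25, SE 0.14, adjusted p = 0.304) missed the threshold, and Bhlhe41 turned to 0.15 without Control 2. Fcer2a was at least 2.97-fold and Cr2 at least 2.23-fold higher over the pooled libraries.

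B cells held 77.1% and 88.9% of the Sox5 UMIs of the treated libraries, 81.5% and 80.5% of those of Fcrl5 and 54.3% and 65.5% of those of Zbtb32, but 6.67% and 5.26% of those of Cd5 and 0.354% and 0.372% of those of Cd9. A sum over all cells cannot tell a larger number of B cells from more RNA per B cell. Outside the B gate the pooled ratio of treated to control was 3.71 for Sox5 (60 and 12 UMIs, counting interval 1.98 to 7.58) and 1.19 for Zbtb32 (40 and 25 UMIs, 0.703 to 2.04), while Fcrl5, at 13 UMIs and 1, had 9.65 (1.45 to 410), Cd5, at 32 and 1, had 23.7 (3.97 to 967), and Bhlhe41 had 0.908 (0.755 to 1.09). Kept barcodes that met no class gate held 23 and 14 Sox5 UMIs in the treated libraries, against 0 and 0 in the controls. Tumor cells held 10 and 11 in the treated libraries, against 4 and 8. Of the Cd5 UMIs, 4 of 15 in Treated 1 and 12 of 19 in Treated 2 lay in T cells. T cells were 10 of 916 and 1 of 566 kept cells in the controls and 16 of 1831 and 79 of 1091 in the treated libraries, so their share was higher than in both controls in Treated 2 alone, and their part in the Cd5 difference was not tested. In tumor cells, Bhlhe41 (log2 fold change -0.13, SE 0.19, edgeR adjusted p = 0.835), Cd9 (-0.17, SE 0.13, adjusted p = 0.633) and Zbtb32 (-0.74, SE 0.49, adjusted p = 0.555) were the 3 genes of the 8 that passed the filter. None was called, at an unadjusted p below 0.05 or by DESeq2 either, where 1.76% of 11302 genes were called.

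**Figure D5:**
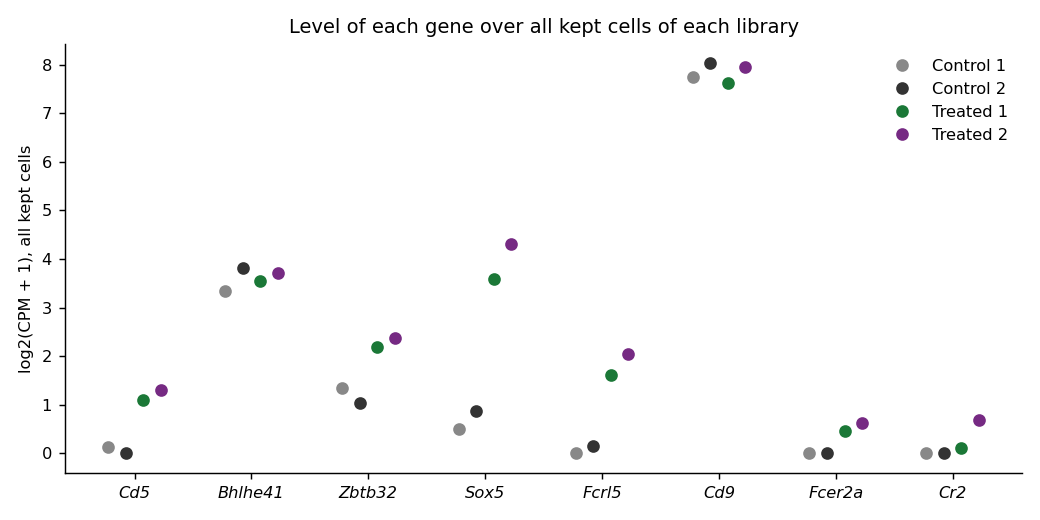
Level of each gene over all kept cells as log2(CPM + 1) (vertical axis) in Control 1 and Control 2 (grey and black) and Treated 1 and Treated 2 (green and purple), 1 point per library. Sox5, Fcrl5, Zbtb32 and Cd5 are higher in both treated libraries than in both controls, and Bhlhe41 and Cd9 overlap.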

How the data were processed

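Libraries of DLA tumors, 4 in all, were read as single-cell data, 2 controls and 2 SP11-treated. The labels call the controls untreated and the study's supplement calls them vehicle controls. The deposited values are raw UMI counts per gene and barcode, which the authors made with Cell Ranger 7.1.0 and did not normalize. The submitters' processing notes name mm10 and the study's methods name hg38.

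Barcodes with at least 200 genes and at most 10% mitochondrial UMIs were kept. B cells were gated as described above, T cells by 2 UMIs of Cd3 and Tcr genes, myeloid cells by 3 UMIs of Tyrobp, Fcer1g and Lyz2, and tumor cells by 5 UMIs of Krt8 and Krt18, each with limits on the UMIs of other classes. Gate genes are not results. Scrublet in scanpy 1.11.5 was run with a score limit of 0.25 in every library, because its automatic limit was unstable. It called 46, 10, 13 and 16 doublets, 1 of them a B cell, and none was removed from the reported values.

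UMIs were summed per library and class and compared with the quasi-likelihood test of edgeR 4.0.16 (R 4.3.3), with filterByExpr and TMM, at an adjusted p of 0.05, after a check on simulated data. CPM is the count scaled to 1000000 UMIs of the sum. The fits between classes keep the library as a block because classes of 1 library come from the same sample. For SP11 against control the study's methods speak of 2 independent sets, but no label ties a replicate number to a set, and 2 pairs cannot show it, so the fit has no block. Named genes are the 8 genes, members of fixed lists that passed a test, and the 3 genes most like each of the 8 with at least 20 UMIs in B cells. The 8 genes and the lists were chosen with earlier results of these data known. Alternatives were DESeq2 1.42.0, other filters and gates, thinning to 500 or 1000 UMIs, doublets or shared barcodes left out, other block terms and each library left out. Sequences came from RefSeq promoters in GRCm38.p6, and all 8 genes matched.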

Additional observations from a re-analysis of the deposited data

How the results depend on the processing

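Of the 6 tested genes, the number called higher in B cells was 3 to 4 against T cells, 4 against myeloid cells and 4 to 6 against tumor cells under the alternatives run. Over all kept cells DESeq2 called 2 of the 6 genes higher in place of 4, and leaving out each library gave 3 to 4. In tumor cells 0 were called under every alternative run, each library left out included. With the replicate block, 4 genes were called over all kept cells and 0 in tumor cells, as without it, while the genes called higher and lower among all genes went from 1107 and 198 to 1515 and 705, and in tumor cells from 125 and 74 to 372 and 283. DESeq2 called 644 and 115 over all kept cells and 37 and 31 in tumor cells, where no filter on low counts gave 4 and 0. Among all genes, 240 were higher in B than in T cells and 710 than in myeloid cells, against 125 and 421 with DESeq2 and 105 and 395 at 500 genes per barcode. The deviations of same-numbered libraries correlated at 0.0774 over all kept cells and 0.127 in tumor cells. Without the replicate block the class fits called 4, 4 and 5 genes, and the comparison of B-1 with follicular B cells called 4 genes in place of 1. That comparison called 5 genes without B cells that carried UMIs of other lineages and 3 with no filter on low counts, where Ighd was not among them (log2 fold change -2.44, adjusted p = 0.243). It could not be fitted at 500 genes per barcode, since Treated 1 then had 0 follicular cells, and the Ighd log2 ratio was -4.31 pooled and -4.26 without Treated 1, with no value without Treated 2, whose loss leaves 1 follicular cell with 0 Ighd UMIs.

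When B cells with UMIs of other lineages were left out, 0 Cd5 UMIs remained in B cells, and the fitted -5.97 against myeloid (SE 6.96, adjusted p = 0.581) and -2.31 against tumor cells (SE 9.86, adjusted p = 0.865) give no direction. With each library left out, Bhlhe41 ran from -0.35 to 0.15 over all kept cells and from -0.36 to 0.13 in tumor cells, above 0 without Control 2. The mean share of B cells with a B-1 gene, 58.7%, moved to 69.9% at 500 genes per barcode, 52.3% without other-lineage UMIs, 54.8% without shared barcodes, 31.2% at 2 UMIs, and 33.1% and 55.1% when thinned to 500 and 1000 UMIs. It ran from 57.9% to 59.4% with each library alone, and the follicular share from 1.11% to 8.18%. Cells with both kinds of gene numbered 6 in all, and 1 to 5 with each library alone. The alternative of leaving out shared barcodes, and the comparison with B cells of neither kind, were chosen after seeing the data. The cause of these moves was not tested. Low counts limit what can be said of Cd5 in B cells, and of the absence of Zbtb32, Fcrl5 and Bhlhe41 in T cells.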
